A study of Homo sapiens with 4 samples.

Results

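The genes described here encode Polycomb repressive complex 2 (PRC2), a nuclear enzyme complex, and its accessory proteins. Members were taken by symbol: EZH1, EZH2, SUZ12, EED, PHF1, PHF19, MTF2, JARID2, RBBP4 and RBBP7, 10 of the 19775 genes named on the array. They had 31 of its 54613 non-control probe sets, and all 10 genes passed the signal filter. RNA was hybridised to 4 Affymetrix arrays and came from HCT116 cells, a widely used line from a human colon carcinoma. Spheroids, which are rounded multicellular aggregates, had 2 arrays, as had monolayers, cells spread on a flat surface. In each condition 1 array was HCT116 wt and the other was labelled HCT116 wt/GFP. Both versions are thus 1 cell line, no version had a replicate array within a culture condition, and how the spheroids were made or how many cultures lay behind an array is not given in the sources used here. The 2 arrays of a condition differ in cell line version, and the fit takes that difference out. What is left for a gene is how far the changes of the 2 versions disagree. Most of the spread behind each p-value is borrowed from other genes (1 residual and 25.9 prior degrees of freedom), and it may be technical.

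PRC2 places methyl groups on lysine 27 of histone H3, a mark of silenced genes. EZH2 or its paralogue EZH1 is the methyltransferase, EED and SUZ12 are needed for its activity, and RBBP4 or RBBP7 bind histones in the complex. The complex takes up further proteins that guide it to chromatin: one of the Polycomb-like proteins PHF1, MTF2 or PHF19 in one form, and JARID2 with AEBP2 in another. In mammals EZH2 is abundant in dividing cells, while EZH1 is also present in cells that have stopped dividing. Messenger RNA was measured here, not the proteins or the histone mark.

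The 250 bases before the annotated starts of the 2 methyltransferase genes and of PHF19 are shown because EZH2 and PHF19 had lower and EZH1 higher signals in spheroids. The sequences are from RefSeq on GRCh38.p14, all on the minus strand, and all 10 members were found there, with 15 start windows. The windows lie at chr9:120877189-120877438 for PHF19, which has 1 more annotated start in that table, at chr7:148884292-148884541 for EZH2, which also has 1 more, and at chr17:42745041-42745290 for EZH1. Capitals mark letters of an E2F motif (TTTCCCGC, TTTGGCGC, TTTCGCGC or TTTGCCGC) or of CCAAT, searched on both strands.
PHF19: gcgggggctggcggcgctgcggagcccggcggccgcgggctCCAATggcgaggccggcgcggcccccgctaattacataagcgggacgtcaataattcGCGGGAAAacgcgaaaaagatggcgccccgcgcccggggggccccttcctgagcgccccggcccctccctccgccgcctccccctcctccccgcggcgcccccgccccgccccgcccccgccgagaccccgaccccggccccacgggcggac
EZH2: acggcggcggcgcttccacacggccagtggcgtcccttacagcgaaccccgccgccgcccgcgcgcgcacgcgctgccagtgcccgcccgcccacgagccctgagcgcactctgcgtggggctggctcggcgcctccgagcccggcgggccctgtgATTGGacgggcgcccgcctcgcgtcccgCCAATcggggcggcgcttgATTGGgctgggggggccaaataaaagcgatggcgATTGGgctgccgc
EZH1: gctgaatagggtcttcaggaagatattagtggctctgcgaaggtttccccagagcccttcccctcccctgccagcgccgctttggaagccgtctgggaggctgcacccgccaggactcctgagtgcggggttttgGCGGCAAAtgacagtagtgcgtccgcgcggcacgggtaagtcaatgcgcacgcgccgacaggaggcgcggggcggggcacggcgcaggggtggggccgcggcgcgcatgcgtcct

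An E2F motif was found in 1 window each of PHF19, EZH1 and SUZ12, so 3 of the 15 member windows held one. The share was 2.79% of all 35116 RefSeq windows of that length and 3.9% of the 16570 windows of genes tested. CCAAT was found in 10 of the 15 windows, from 7 of the 10 genes, against 32% of all windows and 32.6% of those of genes tested. The EZH2 window shown holds 4 copies and the other EZH2 window 0. The other PHF19 window holds no E2F motif. Which starts these cells use is not known from the arrays. The cell cycle motif TTTGAA or TTCGAA was found in 1 member window, that of SUZ12, against 14.3% of all windows and 10.5% of those of genes tested. Also searched were GGGCGG, found in 13 member windows, against 60.4% of those of genes tested, and the hypoxia motif ACGTG or GCGTG, in 9, against 52.9%. The E2F letters thus occur in front of genes with lower signals and of 1 gene with higher signals in spheroids. These matches are descriptions of the sequence, and the 2 windows of RBBP4 overlap each other.

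The study set spheroids against a monolayer to compare gene expression between these forms of culture. In spheroids, 5 of the 10 members had lower signals (PHF19, EZH2, EED, RBBP7 and SUZ12), 3 had higher signals (JARID2, EZH1 and PHF1) and 2 did not pass the test (MTF2 and RBBP4). PHF19, a Polycomb-like reader of histone H3, was 5.88-fold lower, and its log2 signal fell by 2.56 ± 0.13 (SE, 2 arrays per condition). Among alternative subunits, EZH2 was lower and EZH1 higher, and RBBP7 was lower without a call for RBBP4. Of the Polycomb-like genes, PHF19 was lower and PHF1 higher, while MTF2 was not called, at -0.29. On the scale of the hybridisation controls no member was called higher, and PHF1 was at -0.12. Of 14349 genes tested, 18.5% were called lower and 30.6% higher with limma at a Benjamini-Hochberg adjusted p under 0.05. The median log2 change was -0.30 over the 10 members and 0.23 over all genes tested. The members were listed with the change of PHF19 in these data already known, so its place in the list is no independent finding.

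**Figure D1:**
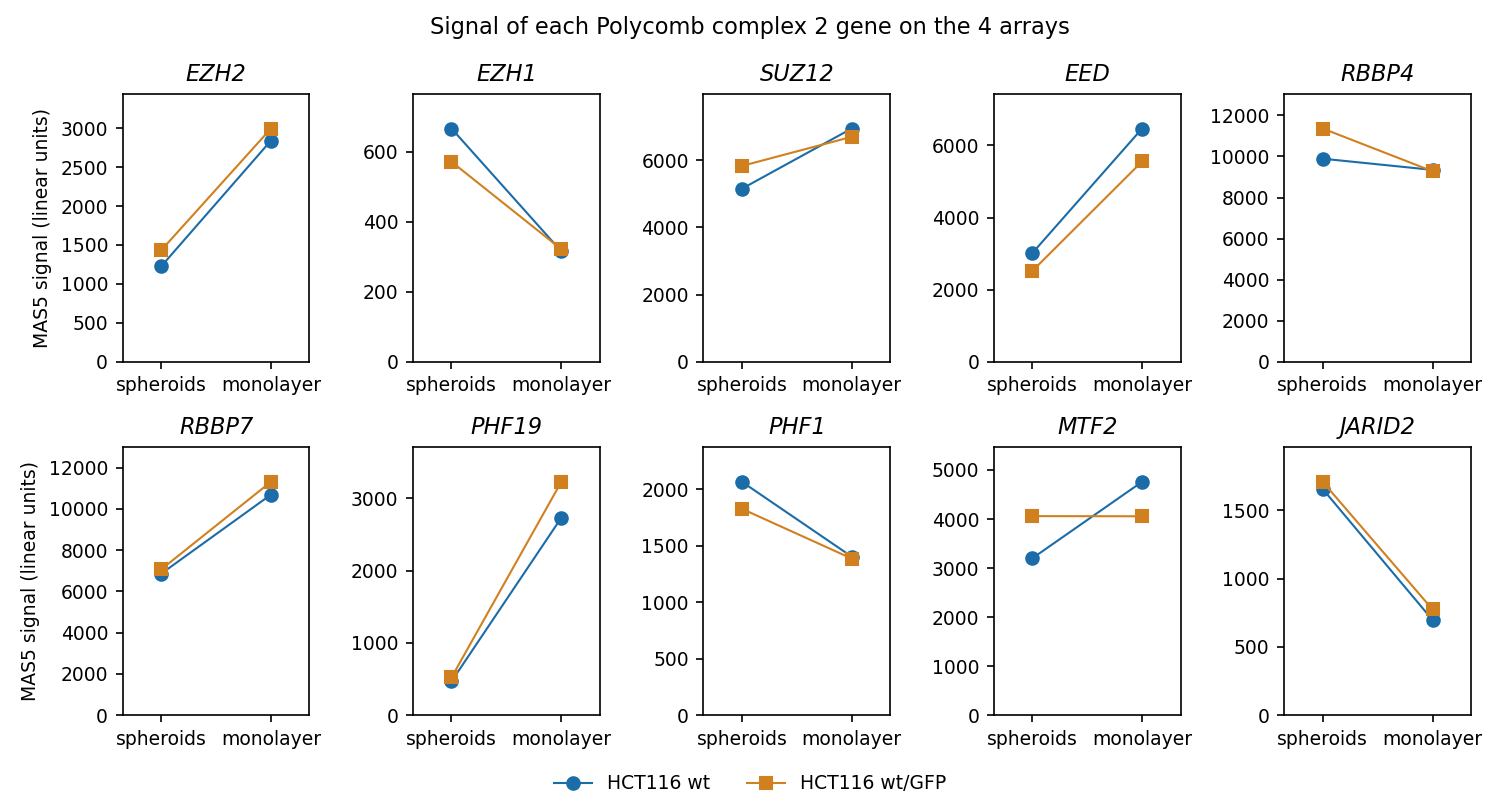
MAS5 signal (linear units, each axis from 0) of each gene's probe set on the 4 arrays, with spheroids left of monolayer and a line joining the arrays of 1 cell line version. PHF19 stood at 468 and 522 in spheroids, against 2734 and 3231 in monolayers, whereas JARID2 and EZH1 slope the other way.

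Signals are given below as deposited, on a linear scale, with wt before wt/GFP. Changes are log2 differences of signal plus 14.0, which understates the change of dim genes. The directions depend in part on how the arrays are scaled. The median signal of an array was 67.3 and 68.4 for spheroids, against 48.0 and 48.8 for monolayers. As deposited, the 14349 genes had a median change of 0.23. It was 0.02 once the arrays were quantile normalized, -0.17 once each was centred on its median and -0.37 once they were scaled to 18 hybridisation controls. Higher genes made up 62.3%, 52.9%, 33.6% and 20.9% of all called genes in these settings. The hybridisation controls, bacterial and phage transcripts added to each sample, were themselves higher on spheroid arrays. Their median log2 difference was 0.39 for the wt pair and 0.78 for the wt/GFP pair. The ratio of the 3' to the 5' probe set of ACTB, one measure of RNA integrity, was 1.76 and 1.73 on spheroid arrays, against 1.32 and 1.30 on monolayer arrays. The same ratio of GAPDH overlapped, at 0.868 and 0.951 on spheroid arrays, against 0.897 and 0.882 on monolayer arrays. The part of these array differences in the results was not tested.

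EZH2, the methyltransferase of dividing cells, had signals of 1225 and 1431 in spheroids, against 2839 and 2994 in monolayers. The groups did not overlap, and EZH2 was 2.19-fold lower in spheroids (log2 change -1.13 ± 0.12, limma adjusted p = 1.24e-08). The change was -1.20 in wt and -1.06 in wt/GFP, so the gap between the lines was far smaller than the change. EZH1, its paralogue with weaker methyltransferase activity, had signals of 666 and 571 in spheroids, against 315 and 321 in monolayers. It was 1.90-fold higher (log2 change 0.92 ± 0.19, limma adjusted p = 0.000145), again without overlap. This call was lost on the scale of the hybridisation controls, where its change was 0.33 (adjusted p = 0.449), while EZH2 fell by 1.72 there. The change of EZH2 minus that of EZH1 was -2.25 in wt and -1.86 in wt/GFP. A factor that multiplies a whole array moves both genes alike, so it cancels in this difference. The difference shows unequal change and not which of the genes moved.

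EZH1 was measured by 5 probe sets, all past the filter. Leaving aside the dimmest, 211310_at, all had changes above 0 in both lines. When every probe set was tested alone, 26.6% of 27038 were called higher and 16.1% lower, and the brightest EZH1 probe set and 203249_at were called higher. The probe set 203249_at had signals of 304 and 373 in spheroids, against 100.1 and 88.5 in monolayers, a change of 1.70 ± 0.27. The 2 not called, 239197_s_at and 239198_at, had values of 0.24 and 0.64. The dimmest one, 211310_at, had signals of 155 and 102 in spheroids, against 35.3 and 17.0 in monolayers. Its mean level in monolayers lay under the filter, which it passed through the spheroid arrays, so neither its call nor its direction is counted. The size of the EZH1 change depended on the probe set. EZH2 had only 1 probe set, so no such check could be made for it.

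EED, which binds the methylated histone tail and stimulates the enzyme, had signals of 3011 and 2518 in spheroids, against 6465 and 5552 in monolayers. Its change of -1.12 ± 0.11 (2.17-fold lower, limma adjusted p = 4.49e-09) was close in size to that of EZH2, and the EZH2 change minus the EED change was -0.11 in wt and 0.08 in wt/GFP. A second EED probe set, 210656_at, lay below the filter, with signals of 20.6 and 24.98 in spheroids, against 6.75 and 23.1 in monolayers. SUZ12, the scaffold subunit that holds the complex together, changed less. Its signals were 5153 and 5832 in spheroids, against 6945 and 6698 in monolayers. These groups did not overlap, and SUZ12 was 1.24-fold lower (log2 change -0.31 ± 0.12, limma adjusted p = 0.0263). Fits that leave out an array also leave out the cell line term and have 1 array in a condition, which is assumed to vary like the 2 arrays of the other condition. The call of SUZ12 was not stable: it was lost after quantile normalization (-0.14, adjusted p = 0.309), without a trend in the moderation (adjusted p = 0.211), without a filter (adjusted p = 0.0605), without the wt spheroid array (adjusted p = 0.168), without the wt monolayer array (0.189) and without the wt/GFP monolayer array (0.1101). Its dim probe set 1566190_at had changes of 0.87 in wt and -0.23 in wt/GFP, and the mean over its probe sets gave 0.0017.

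RBBP7 and RBBP4 are closely related WD40 proteins that bind histones and also serve in other chromatin complexes. RBBP7 had signals of 6854 and 7061 in spheroids, against 10689 and 11312 in monolayers. It was 1.58-fold lower (log2 change -0.66 ± 0.12, limma adjusted p = 2.63e-05), by nearly the same amount in both lines, -0.64 and -0.68. RBBP4 had signals of 9892 and 11361 in spheroids, against 9347 and 9282 in monolayers. Its change of 0.19 ± 0.12 did not pass the test (limma adjusted p = 0.202, 95% interval -0.06 to 0.43), and the value was -0.20 with median centring and -0.41 on the scale of the hybridisation controls. None of its 6 probe sets, all past the filter, was called when tested alone, and their changes ranged from -0.07 to 0.51. The RBBP7 change minus the RBBP4 change was -0.72 in wt and -0.97 in wt/GFP. RBBP7 had 1 probe set. Its call was lost without a trend in the moderation (adjusted p = 0.0550).

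**Figure D2:**
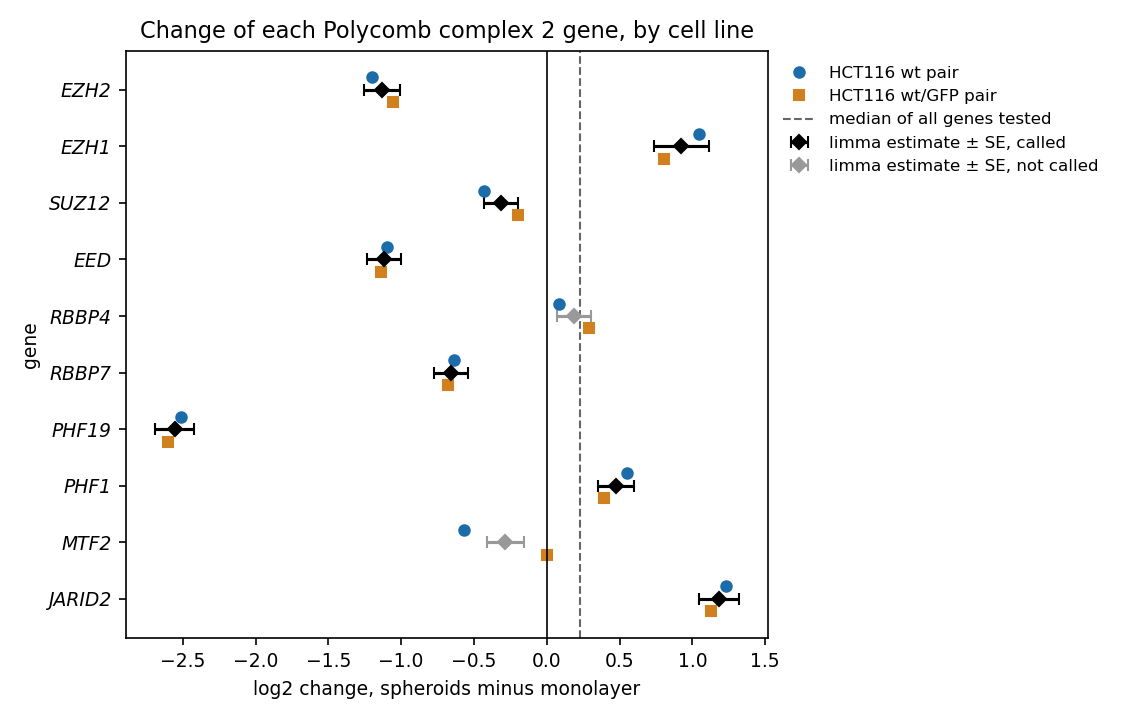
Log2 change, spheroids minus monolayer, of each gene in the wt pair (circles), in the wt/GFP pair (squares) and in the limma fit (diamonds with SE, grey where not called). The dashed line is the median of all genes tested, 0.23. PHF19 lies at -2.56 and MTF2 is the member whose lines lie farthest apart, at -0.57 and 0.0011.

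PHF19, PHF1 and MTF2 are the 3 Polycomb-like proteins, which bind methylated lysine 36 of histone H3 and DNA and recruit PRC2. PHF19 had signals of 468 and 522 in spheroids, against 2734 and 3231 in monolayers. Both spheroid arrays lay far below both monolayer arrays, with changes of -2.51 in wt and -2.60 in wt/GFP (limma adjusted p = 1.06e-14). Only 7 of the 14349 genes tested had a lower log2 change. Its call held under all 17 alternatives, with log2 changes from -3.15 to -2.08 and adjusted p-values up to 0.0290.

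All 3 probe sets of PHF19 were lower. The brighter pair, 227212_s_at and 227211_at, which the annotation ties to the same sequence record, gave -2.56 ± 0.14 and -2.34 ± 0.15 when every probe set was tested alone. The remaining one, 225533_at, had signals of 224 and 249.5 in spheroids, against 595 and 655 in monolayers. Its change was smaller, -1.35 ± 0.19, with -1.36 in wt and -1.35 in wt/GFP. The direction was thus shared by the probe sets, and the size differed between them by over 1 log2 unit.

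PHF1 had signals of 2066 and 1827 in spheroids, against 1403 and 1386 in monolayers. It was 1.39-fold higher (log2 change 0.47 ± 0.13, limma adjusted p = 0.00251), without overlap. The other probe set, 202928_s_at, gave 1.22 ± 0.31. The direction of PHF1 depended on the scaling: its change was 0.08 (adjusted p = 0.631) with median centring and -0.12 (adjusted p = 0.837) on the scale of the hybridisation controls. Its call was also lost without a trend in the moderation (adjusted p = 0.101), without the wt monolayer array (0.0613) and without the wt/GFP monolayer array (0.0696). MTF2 had signals of 3198 and 4059 in spheroids, against 4759.6 and 4056 in monolayers. The 2 lines disagreed, with -0.57 in wt and 0.0011 in wt/GFP, and the fitted change of -0.29 ± 0.13 did not pass (limma adjusted p = 0.0645). Of the 5 MTF2 probe sets, 1 was called lower when tested alone, 203346_s_at, with -0.61 ± 0.15. The remaining 4 had values from -0.36 to 0.12. MTF2 passed the test with median centring (-0.68, adjusted p = 7.08e-05), on the scale of the hybridisation controls (-0.88, adjusted p = 0.0204), with a stricter filter (adjusted p = 0.0230), with a larger pseudocount (adjusted p = 0.0394) and without the wt/GFP spheroid array (-0.46, adjusted p = 0.0177). The PHF19 change minus the PHF1 change was -3.07 in wt and -2.99 in wt/GFP, and the PHF19 change minus the MTF2 change was -1.94 and -2.60.

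JARID2, a DNA-binding protein without demethylase activity that recruits PRC2, had signals of 1657 and 1709 in spheroids, against 697 and 775 in monolayers. It was 2.27-fold higher (log2 change 1.18 ± 0.14, limma adjusted p = 3.87e-08), and the lines agree closely, at 1.23 and 1.13. The second bright probe set, 203298_s_at, gave 1.24 ± 0.15. A further, dim one, 240674_at, had signals of 78.4 and 55.5 in spheroids, against 48.4 and 77.7 in monolayers, which overlap. Both bright probe sets carry the array's mark for probe sets that can match several transcripts. Without such probe sets JARID2 was left with the dim one and a change of 0.08 (adjusted p = 0.901). On the scale of the hybridisation controls its change was 0.59 (adjusted p = 0.184).

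**Figure D3:**
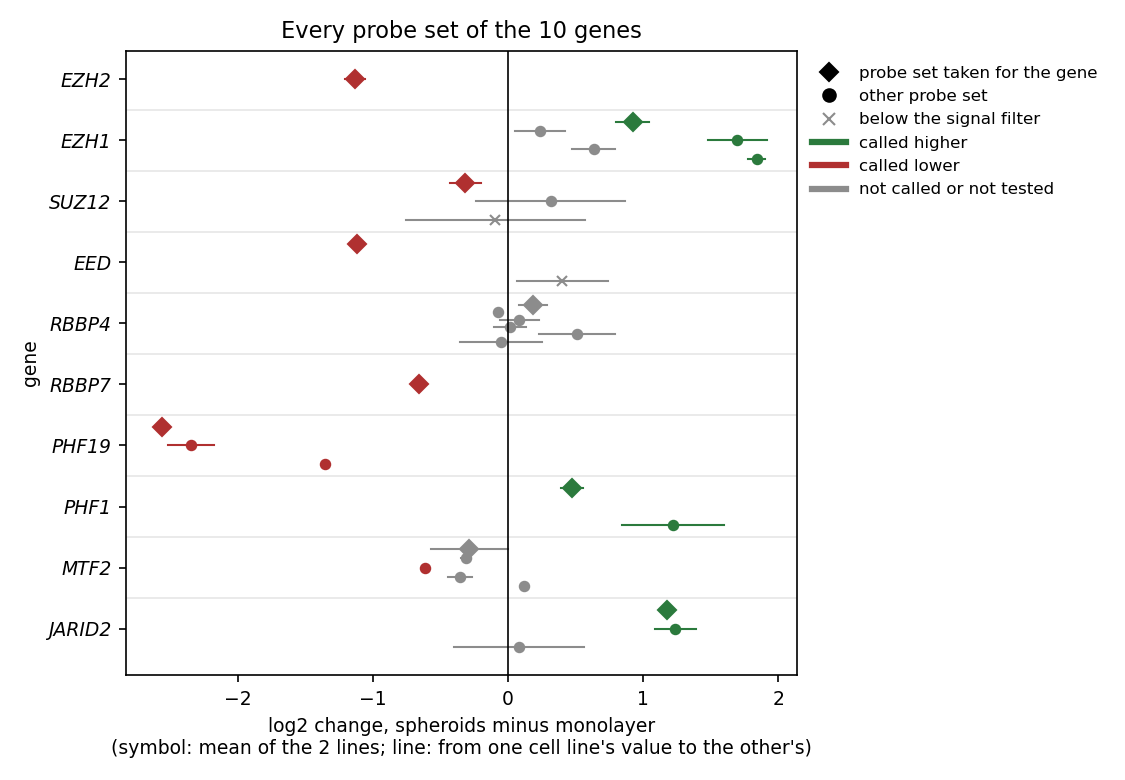
Log2 change, spheroids minus monolayer, of each of the 31 probe sets, as the mean of the 2 cell line versions (symbols) with a line from one version's value to the other's. Diamonds stand for the gene, crosses lie below the signal filter, and colour gives the call of the probe set tested alone, also for 211310_at of EZH1, whose call is not counted. All 3 PHF19 probe sets lie below 0, and the EZH1 probe sets other than 211310_at lie above it.

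Relative to the median of all genes, which the scaling moves, EZH2, EED, RBBP7 and PHF19 stood at -1.36, -1.34, -0.89 and -2.78 log2 units, and JARID2, EZH1 and PHF1 at 0.95, 0.70 and 0.25. With the deposited scaling 5 members were called lower and 3 higher. The counts were 4 and 4 after quantile normalization, where SUZ12 lost its call and RBBP4 was called higher (0.33, adjusted p = 0.00902). They were 6 lower and 2 higher with median centring, and 6 lower and 0 higher on the scale of the hybridisation controls. EZH2, EED, RBBP7 and PHF19 were called lower under all 4 scalings. No member was called higher under all 4.

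**Figure D4:**
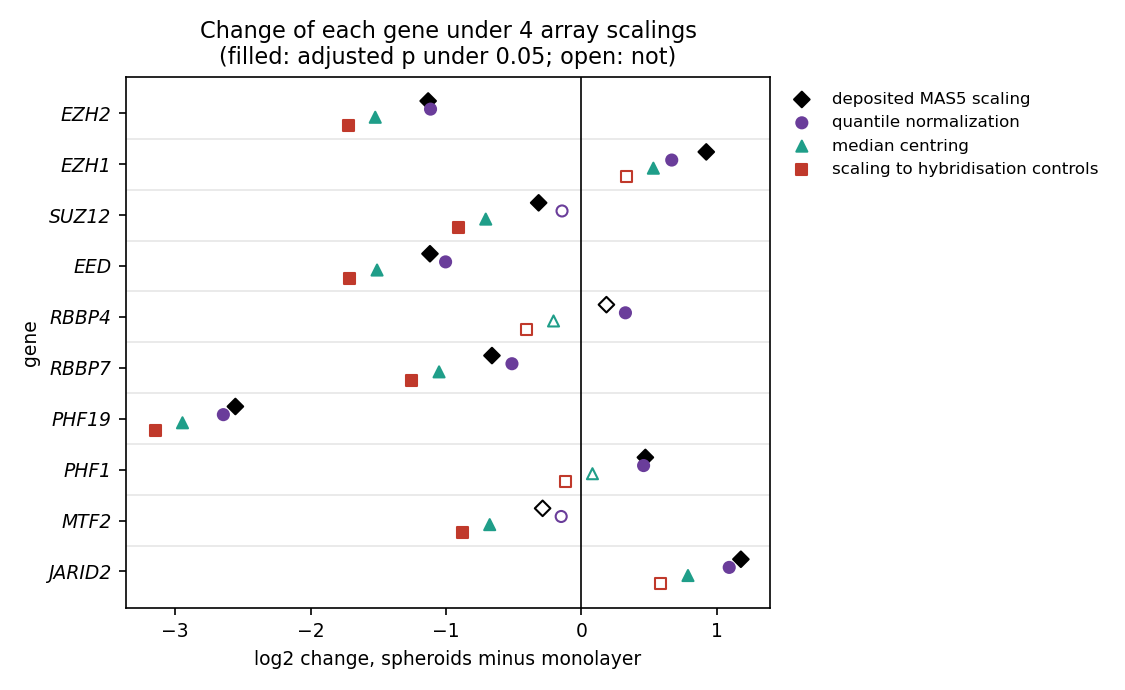
Log2 change, spheroids minus monolayer, of each gene under 4 scalings of the arrays, filled where the adjusted p from limma was under 0.05. EZH2, EED, RBBP7 and PHF19 stay filled and below 0, while EZH1, JARID2 and PHF1 open under the hybridisation controls.

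The other factor of the design was the version of the line. No member was called between wt/GFP and wt with limma, and 4 of 14349 genes were, or 0.0279%. At an unadjusted p under 0.05 there were 1 member and 936 genes. That member was EED, whose log2 change of wt/GFP minus wt was -0.24 ± 0.11 (adjusted p = 0.758), with lower signals in wt/GFP than in wt in both cultures.

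The genes with the pattern most like that of PHF19 over the 4 arrays, by Euclidean distance between log2 values centred on each gene's mean, were TMPO-AS1 at 0.16, CCN2 at 0.26, CCN1 at 0.28, AURKB at 0.29 and INF2 at 0.33. For EZH2 they were BORCS8, TOP2A, PSMD3, RBM34 and NUDC, at 0.042 to 0.066. For EZH1 they were MOB1B, DNASE1, GRB7, DBH-AS1 and GALNT11, at 0.041 to 0.055. With 4 arrays the distance is set mostly by the size of the change. Among the members themselves EZH2 lay closest to EED, at 0.40, and EZH1 closest to JARID2, at 0.33, whereas the closest member to PHF19 was EZH2, at 1.43.

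Proliferation markers moved with the lower members. All 12 were called lower, with a median change of -1.86, and their summed signal was 56920.4 and 46572 in spheroids, against 156261 and 136448 in monolayers. The largest changes among them were those of CCNA2, a cyclin of S phase and G2, at -2.15 ± 0.12 and MCM5, a subunit of the replicative helicase, at -2.14 ± 0.12. EZH2 and EED, at -1.13 and -1.12, changed less than the median of these markers, and PHF19 changed more than all 12. TOP2A, a topoisomerase of dividing cells, was at -1.10. It is named because its pattern lay near that of EZH2, so its closeness to EZH2 is no separate finding. The part of proliferation in the members' changes was not tested. In such bulk RNA, fewer cells of a kind and less RNA per cell cannot be told apart. Of 13 E2F and pocket protein genes, which control entry into the cell cycle, 5 were lower and 3 higher (median -0.40). Among all genes tested 18.5% were lower and 30.6% higher. With median centring 9 of the 13 were lower and 3 higher. E2F8 and E2F7, repressor E2Fs of dividing cells, were at -2.24 ± 0.14 and -1.56 ± 0.14, and RBL2, the pocket protein p130 of resting cells, and E2F5 at 1.77 ± 0.13 and 1.44 ± 0.17.

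Other PRC2 accessory genes were mostly higher. Of 4 tested, 3 were called higher: LCOR, whose locus encodes a PRC2 partner, at 0.79 ± 0.13, EPOP, a partner of the Polycomb-like form, at 0.64 ± 0.15, and AEBP2, the companion of JARID2, at 0.56 ± 0.12. None of the 3 was called after scaling to the hybridisation controls. Polycomb repressive complex 1 is the second Polycomb machine, which adds ubiquitin to histone H2A. Of 20 of its genes tested, 10 were higher and 2 lower (median 0.24, close to the 0.23 of all genes). Calls over all genes tested were 30.6% higher and 18.5% lower. BCOR, a corepressor of a variant complex, was at 1.16 ± 0.21, CBX7, a reader of the PRC2 mark, at 0.95 ± 0.19, and BCORL1 at 0.80 ± 0.21. PCGF6, which defines another variant complex, was at -1.18 ± 0.13. On the scale of the hybridisation controls 0 were higher and 7 lower. Without the wt monolayer array 6 were higher, without the wt/GFP monolayer array 1 was lower and without the wt/GFP spheroid array 4 were lower.

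Genes for the complex that removes ubiquitin from histone H2A, and for demethylases of lysine 27 of histone H3, were mostly higher. Of 11 tested, 9 were called higher and 0 lower (median 0.65). BAP1, the H2A deubiquitinase itself, had no probe set annotated to it alone. KDM6A and KDM6B are the only genes tested in this list whose enzymes remove a mark. OGT, the transferase of N-acetylglucosamine that partners the H2A deubiquitinase, was at 1.59 ± 0.12. The summed signal of the 11 genes was 14746 and 16167 in spheroids, against 7511 and 8074 in monolayers. KDM6B, a demethylase of lysine 27 of histone H3, was at 1.06 ± 0.19, with 0.63 in wt and 1.49 in wt/GFP. The related demethylase KDM6A, named after its value was seen, was at 0.02. MBD5 was at 0.97 ± 0.24 and FOXK1 at 0.76 ± 0.13. The count fell to 5 with quantile normalization, 3 with median centring and 1 on the scale of the hybridisation controls. Of 15 genes for trithorax and other histone methyltransferases and their partners, 4 were higher and 2 lower. Of all genes tested, 30.6% were higher and 18.5% lower. The balance turned to 3 higher and 5 lower with median centring and to 1 higher and 4 lower on the scale of the hybridisation controls, and 1 was lower without the wt/GFP monolayer array. KMT2C and KMT2A, methyltransferases of lysine 4 of histone H3, were at 1.52 ± 0.17 and 1.27 ± 0.18, NSD3 at 1.06 ± 0.14, and NSD2, a lysine 36 methyltransferase, at -0.97 ± 0.13.

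Of 25 partners of RBBP4 and RBBP7 in other complexes, 6 were higher and 9 lower, with a median of -0.04. The shares over all genes tested were 30.6% higher and 18.5% lower. With median centring 1 was higher and 15 lower, and on the scale of the hybridisation controls 1 was higher and 12 lower. CHAF1B, a subunit of the histone chaperone of DNA replication, was at -1.87 ± 0.19, LIN54, a subunit of the cell cycle complex MuvB, at -1.24 ± 0.27, and HAT1, an acetyltransferase of new histones, at -1.15 ± 0.12. SMARCA1, a remodelling ATPase, was at 1.93 ± 0.13.

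Known kinds of Polycomb target were read as counts. Of 23 HOX genes tested, 4 were higher and 3 lower, and 16 were not called (median 0.22), where 30.6% of all genes were higher and 18.5% lower. No HOXA gene was tested. Several of those not called were dim and imprecise, such as HOXC12 at 0.04 ± 0.61, so a missing call there does not show a lack of change. With median centring 2 were higher and 5 lower, and on the scale of the hybridisation controls 0 were higher and 5 lower. HOXB5, HOXC4, HOXD8 and HOXB3 were at 1.12 ± 0.19, 0.98 ± 0.28, 0.92 ± 0.28 and 0.85 ± 0.14. The 3 lower ones, named after their values were seen, were HOXB4, HOXB8 and HOXB7, at -0.65 ± 0.18, -0.65 ± 0.13 and -0.44 ± 0.11. Of 13 genes that earlier work names as repressed by EZH2 in cancer cells, 7 were higher and 1 lower (median 1.01). They include CDKN1C and CDKN2B, which block cyclin-dependent kinases, at 2.80 ± 0.15 and 2.62 ± 0.27, CDH1, encoding E-cadherin, at 2.36 ± 0.12, and TIMP2, an inhibitor of matrix proteases, at 1.30 ± 0.12. CDKN2A, named after its value was seen, was the lower one, at -0.70 ± 0.13. The changes of CDKN1C, CDKN2B and CDH1 were known when this list was written, so its count is no independent evidence. After scaling to the hybridisation controls, 3 were higher and 2 lower.

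**Figure D5:**
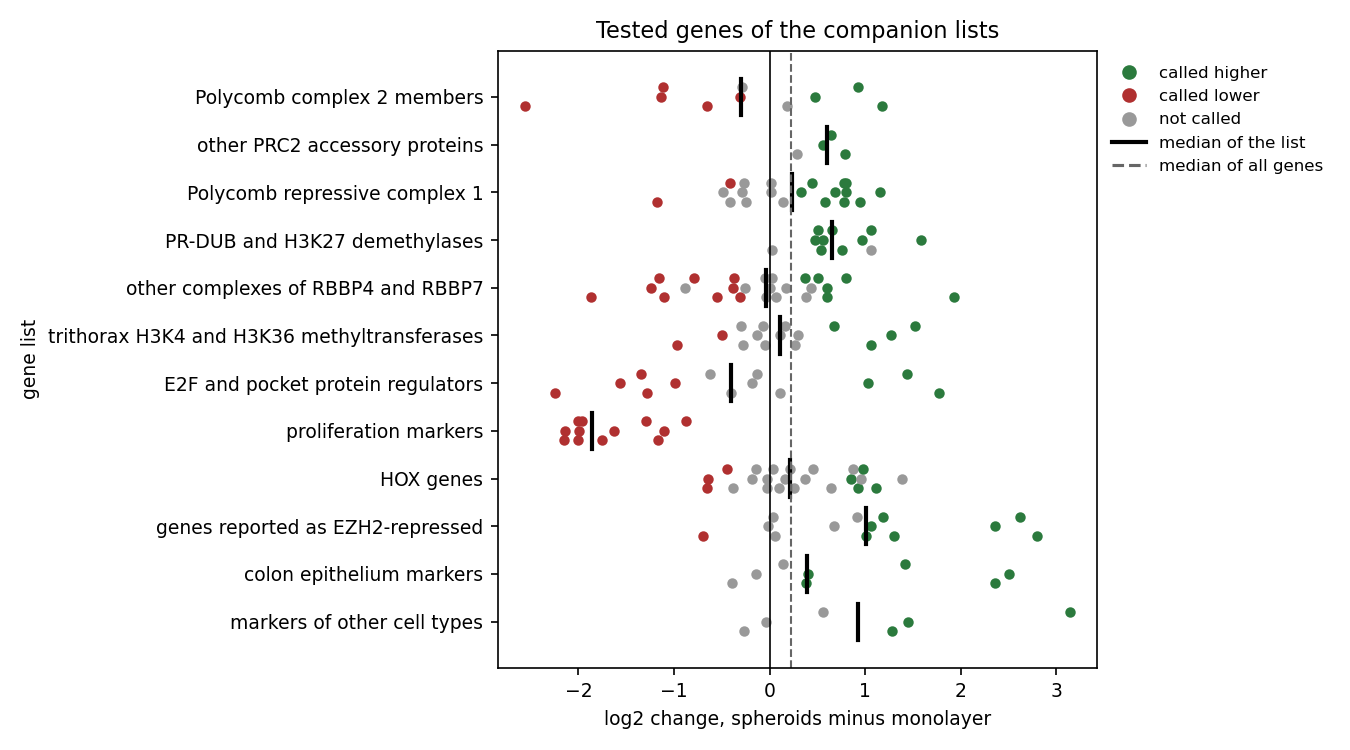
Log2 change, spheroids minus monolayer, of each tested gene of the companion lists (points, coloured by call), with each list's median (black bar) and the median of all genes tested, 0.23 (dashed). All 12 proliferation markers lie below 0. The list of PR-DUB, the complex that removes ubiquitin from histone H2A, and H3K27 demethylases runs from 0.02 (KDM6A) to 1.59 (OGT).

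The cells expressed the epithelial markers of the line: EPCAM, KRT8, KRT18 and KRT19 passed the filter, while CDX1 and CDH17 lay below it. In spheroids 5 of 8 tested colon epithelium markers were higher, where 30.6% of all genes tested were. KRT20, a keratin of differentiated colon cells, was at 2.51 ± 0.21 and KRT19, a keratin of simple epithelia, at 0.40 ± 0.13. The 3 not called, KRT8, KRT18 and CDX2, named after their values were seen, were at -0.14, 0.14 and -0.39. CDX2 was dim, with signals of 66.4 and 33.1 in spheroids, against 53.8 and 81.6 in monolayers. VIL1, the microvillus protein villin and 1 of the 5, had signals of 90.7 and 73.6 in spheroids, against 16.1 and 28.8 in monolayers. It passed the filter of 30.6 only through the spheroid arrays, so its call is no support. The count of 5 was 2 without the wt spheroid array, 2 without the wt/GFP spheroid array, 3 without the wt/GFP monolayer array, 3 without the cell line term and 2 without a filter. On the scale of the hybridisation controls 2 were higher and 2 lower. Of 6 tested markers of other cell types, COL1A1, a fibrillar collagen, was at 3.14 ± 0.15 and ACTA2, smooth muscle actin, at 1.28 ± 0.27, both called higher. COL3A1, another fibrillar collagen, had signals of 57.4 and 79.8 in spheroids, against 29.5 and 6.56 in monolayers, and also passed the filter only through the spheroid arrays, so its call is not counted. DCN, CD3E and PECAM1, named after their values were seen, were not called, at -0.04, -0.26 and 0.56. The summed signal of the 6 was 2922 and 4576 in spheroids, against 765 and 666 in monolayers, of which COL1A1 alone made up 2275 and 3780 in spheroids, against 303 and 338 in monolayers. On the scale of the hybridisation controls 1 of the 6 was called higher, and COL1A2, PTPRC, CD14, VWF and PDGFRB lay below the filter. Their part in the members' changes was not tested.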

How the data were processed

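Messenger RNA of spheroids and monolayers was measured on 4 Affymetrix arrays, 1 for HCT116 wt and 1 for its wt/GFP version in each condition. The deposited values are linear MAS5 signal intensities of 54675 probe sets, per the submitters' processing notes, and the trimmed mean of each array was 500.1 after leaving out 2% at each end. Signals ran from 0.115 to 68036, and the version of MAS5 is not given in the sources used here. Background and mismatch handling in MAS5 makes dim probe sets noisy, and precision is limited by the small number of arrays.

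Of the 54613 non-control probe sets, 41091 had 1 gene symbol in the platform annotation, 1801 several and 11721 none, and 41037 were matched to current RefSeq symbols. Values were taken as log2(signal + 14.0), where 14.0 is the 25th percentile of all signals. Probe sets with a mean over the 40th percentile (signal 30.6) were kept, and the one with the highest mean stood for its gene, which left 14349 genes. They were fitted with limma 3.58.1 in R 4.3.3 (culture condition plus cell line version, eBayes with trend, 1 residual and 25.9 prior degrees of freedom, two-sided, Benjamini-Hochberg adjusted p under 0.05). Arrays were paired by the version of the line that the labels give. Scaling, pseudocount, filter, choice of probe set, block, moderation and each array were varied. The fit was tested on simulated data.

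The members and gene lists were chosen with earlier results of these data known. All members are named. In each list up to 4 called genes with the largest change and the same sign in both lines are named, and for PHF19, EZH2 and EZH1 the 5 genes with the nearest pattern. Promoter windows are from RefSeq on GRCh38.p14.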

Additional observations from a re-analysis of the deposited data

Results flagged for a closer look

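In 6 of the 29 member probe sets past the signal filter, the wt and wt/GFP pairs had changes of opposite sign, and 1 of the 6 stood for its gene. Each line had 1 array per condition, so the difference between the lines was not tested. That one is the MTF2 probe set 203345_s_at, where the wt pair changed by -0.57 and the wt/GFP pair by 0.0011 on the log2 scale. The SUZ12 probe set 1566190_at had 0.87 in wt and -0.23 in wt/GFP, and the JARID2 probe set 240674_at had 0.57 and -0.40. Of the RBBP4 probe sets, 237333_at had -0.061 in wt and 0.23 in wt/GFP, 225396_at had -0.10 and 0.14, and 244872_at had 0.26 and -0.35. No probe set of EZH1, EZH2, EED, PHF1, PHF19 or RBBP7 that passed the filter did so.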

How the results depend on the processing

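Of 168 member changes recomputed under alternatives, 144 kept their direction and their side of the threshold, 14 lost the call, 6 gained one and 4 changed sign, and the causes were not tested. The changes of sign were PHF1 at -0.12 and RBBP4 at -0.41 after scaling to the hybridisation controls, RBBP4 at -0.20 after median centring and SUZ12 at 0.0017 with the mean of its probe sets. PHF19, EZH2 and EED kept their calls in every alternative that gave them a value. Of all genes, 4393 higher and 2657 lower calls became 2348 and 4639 after median centring, 992 higher after scaling to the hybridisation controls, and 2646 and 1174 without a trend in the moderation. Without probe sets that can match several transcripts, 1714 were lower. Members called higher numbered 0 after scaling to the hybridisation controls, and members called lower numbered 3 without the trend and 3 without shared probe sets, where EZH2 and EED had no probe set past the filter. Leaving out each array in turn gave 3479 to 3828 genes higher and 1976 to 2576 lower, with 2 to 3 members higher, 4 to 6 lower and 0 called between the lines. With no replicate block, 4112 genes were higher and 2515 lower, with 3 and 5 members, and the block changed no member's call. Of 352 list counts, 59 moved by over 1.5 times. Dim probe sets limit what can be said of SUZ12, EED and JARID2 beyond their bright ones.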

Other observations

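A probe set annotated to both SUZ12 and its pseudogene SUZ12P1, 213971_s_at, was left out of the members. It had signals of 1243 and 1396 in spheroids, against 1692 and 1349 in monolayers, which overlap. The antisense transcript JARID2-AS1 lay below the filter, with signals of 5.75 and 5.62 in spheroids, against 1.90 and 6.19 in monolayers.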
